A study of Homo sapiens with 6 samples.

Results

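The glucocorticoid receptor gene NR3C1 and 7 genes around it were followed in HepaRG cells with and without a functional PXR knockout. The 8 genes were chosen by name: NR3C1, FKBP5, FKBP4, TSC22D3, HSD11B1, ZBTB16, KLF9 and ERRFI1. All 8 were present among the 16659 genes of the deposited table, and all 8 passed the filter on low values. HepaRG is a human liver cell line, which the labels class as a hepatic stem cell line and as cancer. PXR, the pregnane X receptor encoded by NR1I2, is a nuclear receptor that senses drugs. RNA was sequenced from 3 libraries labelled as a functional knockout of PXR and from 3 wild-type libraries, which serve as the control. Cells of both groups carried no drug treatment, per the labels. The labels do not give the hormone content of the medium, how the knockout was made or how many clones it holds, and they do not say that libraries came from separate cultures. The p-values therefore measure the spread between these libraries, which may be technical.

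Glucocorticoids such as cortisol cross the cell membrane and bind the glucocorticoid receptor, a transcription factor that waits in the cytoplasm in a complex with the chaperone HSP90. Binding of hormone is accompanied by a swap of immunophilins on HSP90, in which FKBP5 (FKBP51), which lowers the affinity of the receptor for hormone, gives way to FKBP4 (FKBP52), which favours transport to the nucleus. In the nucleus the receptor raises genes such as FKBP5, TSC22D3, ZBTB16, KLF9 and ERRFI1 and restrains inflammatory genes, and in liver it drives gluconeogenesis and amino acid breakdown. The enzyme HSD11B1 makes active cortisol from inactive cortisone inside the hepatocyte, and glucocorticoids raise PXR itself in human hepatocytes.

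The receptor transcript differed little between the groups, while 5 of its 7 companions were higher and 1 was lower in the knockout. HSD11B1 stood far from the others, at 8.81-fold its wild-type level. FKBP5, TSC22D3, ZBTB16 and ERRFI1 were higher by 1.16- to 1.41-fold, FKBP4 was at 0.699 of its wild-type level, and KLF9 was nearly level. In all, 6 of the 8 genes passed limma's test with an adjusted p under 0.05, against 79.9% of the 16219 genes tested, and the groups did not overlap at 6 of 8, against 80.8% of all genes. The share of changed genes was thus near the background of this comparison. By direction, 5 of 8 were called higher, against 40.3% of all genes, and 1 of 8 lower, against 39.6%.

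Levels are given as scaled CPM, a read count relative to a library total that carries a scaling factor. Each log2 fold change is knockout minus wild type of log2(scaled CPM + 0.5), and the added 0.5 makes changes of weakly expressed genes look smaller than they are. Estimated depth was 28154914 to 33393110 reads in the knockout libraries and 11359209 to 20945994 reads in the wild-type libraries, so every knockout library was the deeper. Summed levels per library were 1028470 to 1042826 in the knockout and 936409 to 947974 in wild type. NR1I2, the targeted gene, averaged 13.6 ± 0.62 CPM in the knockout and 7.63 ± 0.60 CPM in wild type (SD, n = 3 each), and was called higher (log2 0.80 ± 0.084, limma adjusted p = 6.8e-07). The targeted gene was thus not lower in the libraries labelled knockout. A level over the whole gene does not check a functional knockout, and the libraries are called knockout as labelled. Of 13 hepatocyte markers, 12 were in the table and all 12 were called higher, against 40.3% of all genes. Among them, AHSG and ASGR1 passed the filter on low values through the knockout alone. The summed level of the 12 was 43520 to 44723 CPM in knockout libraries and 2288 to 2366 CPM in wild-type libraries. ALB, albumin, made up most of the knockout sum, at 32829 CPM on average in the knockout and 867 CPM in wild type; without it the sums were 11094 to 11336 CPM in the knockout and 1462 to 1485 CPM in wild type. Of 11 cholangiocyte markers, 5 were in the table, 3 higher and 2 lower, against 40.3% and 39.6% of all genes. Among them, KRT7 passed the filter on low values through the wild type alone, so it could be counted only as lower. The sums of the 5 were 619 to 651 CPM in the knockout and 587 to 619 CPM in wild type. These near-equal sums hide opposite changes. SPP1 averaged 43.6 CPM in the knockout and 382 CPM in wild type, while KRT19 averaged 334 and 111 CPM and CD24 248 and 102 CPM. Of 12 stellate and mesenchymal markers, 10 were in the table, 5 higher and 5 lower, against 40.3% and 39.6% of all genes. Among them, PDGFRB passed the filter through the wild type alone and could be counted only as lower. The sums of the 10 were 507 to 529 CPM in the knockout and 147 to 153 CPM in wild type. DCN made up most of the knockout sum, at 334.5 CPM on average in the knockout and 63.1 CPM in wild type. Few markers of other cells were in the table: 2 of 8 endothelial (1 higher, 1 lower), 3 of 10 macrophage and leukocyte (2 higher, 1 lower) and 2 of 7 adrenal cortex (1 higher). The same shares of all genes, 40.3% higher and 39.6% lower, stand beside these counts. Fewer cells of a type and less RNA per cell cannot be told apart in these bulk libraries.

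The promoter windows below are shown because the results turn on these genes: HSD11B1 for the largest difference, and FKBP5 and TSC22D3 as receptor targets that were higher together. They run from 250 bases before to 50 bases after a RefSeq start on GRCh38.p14, read 5′ to 3′ on the gene's strand. RefSeq gave 16 such windows for 6 of the 8 genes, and the gene-level values do not show which start was used. Capitals mark AGAACA, 1 arm of the palindrome the receptor binds, the GC box GGGCGG or the TATA sequence TATAAA, each searched on both strands with overlaps counted.
HSD11B1, chr1:209685929-209686228, plus strand: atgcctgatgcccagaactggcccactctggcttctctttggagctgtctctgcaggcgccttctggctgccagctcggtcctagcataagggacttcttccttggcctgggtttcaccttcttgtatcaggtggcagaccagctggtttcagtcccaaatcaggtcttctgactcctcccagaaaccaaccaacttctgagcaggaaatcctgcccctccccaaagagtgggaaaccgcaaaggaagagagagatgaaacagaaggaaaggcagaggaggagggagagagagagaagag
FKBP5 upstream start, chr6:35728534-35728833, minus strand: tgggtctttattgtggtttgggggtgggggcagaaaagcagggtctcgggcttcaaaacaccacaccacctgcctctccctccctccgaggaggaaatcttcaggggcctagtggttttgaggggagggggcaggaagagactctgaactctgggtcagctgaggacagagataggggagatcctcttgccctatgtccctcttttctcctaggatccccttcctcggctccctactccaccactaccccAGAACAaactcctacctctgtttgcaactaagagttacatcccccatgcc
FKBP5 downstream start, chr6:35688866-35689165, minus strand: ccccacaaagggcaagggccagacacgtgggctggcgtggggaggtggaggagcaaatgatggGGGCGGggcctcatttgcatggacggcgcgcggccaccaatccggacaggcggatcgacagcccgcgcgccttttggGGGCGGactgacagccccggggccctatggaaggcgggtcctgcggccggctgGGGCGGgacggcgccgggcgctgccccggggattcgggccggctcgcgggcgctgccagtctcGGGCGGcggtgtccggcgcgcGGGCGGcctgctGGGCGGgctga
TSC22D3 start with a TATA sequence, chrX:107717013-107717312, minus strand: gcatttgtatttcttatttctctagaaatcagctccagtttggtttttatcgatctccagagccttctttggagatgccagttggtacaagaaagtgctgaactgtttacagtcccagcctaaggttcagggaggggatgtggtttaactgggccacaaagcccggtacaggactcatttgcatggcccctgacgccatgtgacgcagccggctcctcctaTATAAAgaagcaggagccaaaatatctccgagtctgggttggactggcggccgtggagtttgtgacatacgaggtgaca

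The HSD11B1 window held none of these motifs. The upstream FKBP5 window held AGAACA once, beginning at the first base of the transcript, and the downstream FKBP5 window held 6 GC boxes. RefSeq gave 4 windows for TSC22D3; the one printed held TATAAA 29 bases before the start and no GC box, while the other 3 held 1 or 2 GC boxes each and no TATAAA. Across the windows of these genes AGAACA was found in 1 of 16, against 14.8% of all 35116 windows. The GC box was in 10 of 16, against 44.95%, and TATAAA in 2 of 16, against 11.5%. Of the 16 windows, 7 were of NR3C1 and 4 of TSC22D3, and some of these overlapped. The shares thus rest largely on NR3C1 and TSC22D3. The full palindrome, AGAACA and TGTTCT with any 3 bases between them, was in 0 of 16, and in 1 of all 35116 windows. These matches describe letters in the windows, and the absence of a match says nothing of binding elsewhere.

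NR3C1 (ENSG00000113580.15, chromosome 5, 143277931 to 143435512 in GRCh38, minus strand) encodes the receptor. Its level was 119, 109 and 116 CPM in knockout libraries 1 to 3, against 103, 112 and 115 CPM in wild-type libraries 1 to 3. The groups overlapped: knockout library 2 lay below wild-type libraries 2 and 3. Means were 115 ± 5.17 CPM in the knockout and 110.0 ± 5.87 CPM in wild type (SD, n = 3 each). The log2 fold change was 0.061 ± 0.042 (SE; 95% interval -0.030 to 0.15; limma adjusted p = 0.198). Of all tested genes, 92.3% had a larger absolute change.

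Related receptor genes were less even. NR3C2, the mineralocorticoid receptor, which also binds cortisol, rose to 49.2 ± 0.58 CPM in the knockout, against 40.9 ± 1.81 CPM in wild type (log2 0.27 ± 0.042, limma adjusted p = 4.5e-05). PGR, the progesterone receptor, was at 0 in all 3 knockout libraries, against 5.69, 6.75 and 5.98 CPM in wild-type libraries 1 to 3. Set against a floor of 3 reads over the knockout libraries, PGR was at least 187-fold lower. PGR passed the filter on low values through the wild type alone, so it could be called only as lower.

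**Figure D1:**
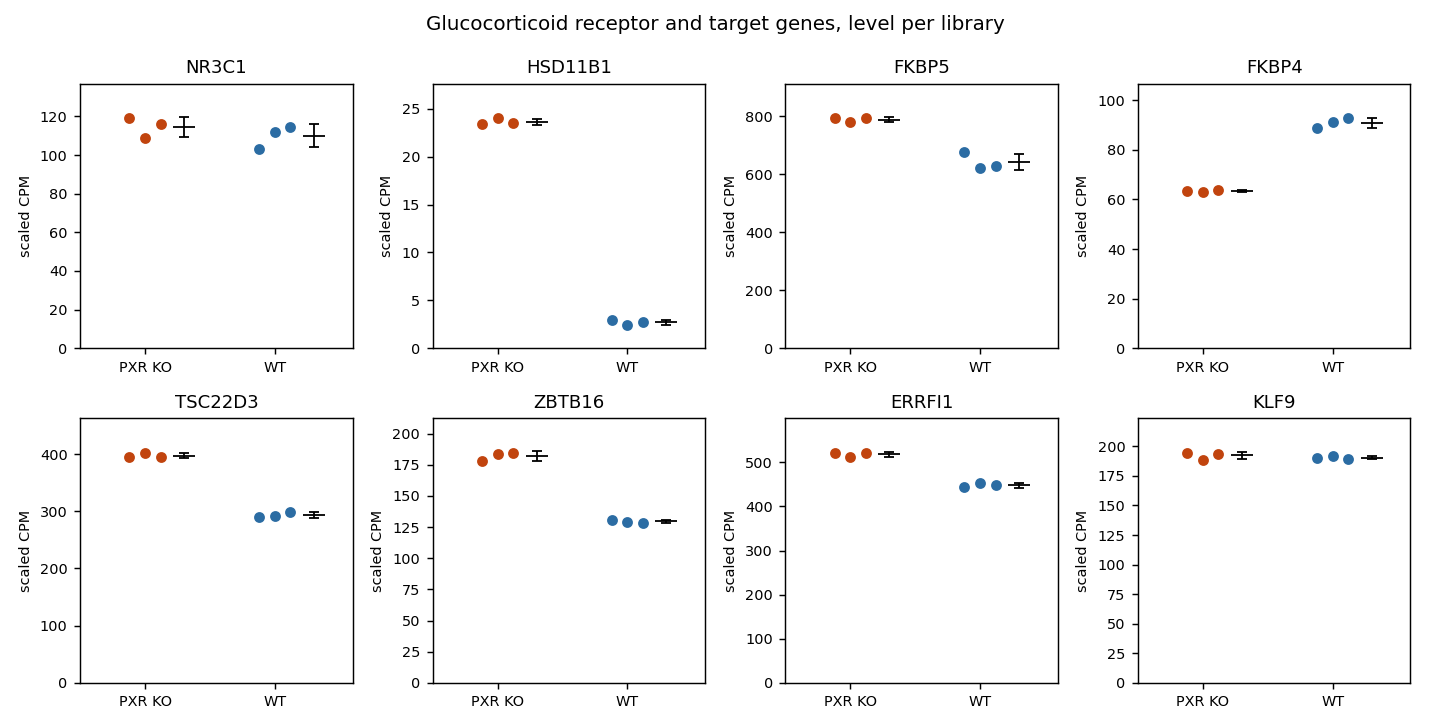
Level of each of the 8 genes in scaled CPM (vertical axes, from 0) for the 3 PXR knockout libraries and the 3 wild-type libraries; points are libraries, and bars beside them the mean ± SD. The groups overlap for NR3C1 and KLF9 and are apart for the other 6 genes, with HSD11B1 at 23.4 to 24.0 CPM in the knockout and 2.39 to 2.97 CPM in wild type.

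HSD11B1 (ENSG00000117594.10, chromosome 1, 209686178 to 209734950, plus strand) encodes 11β-hydroxysteroid dehydrogenase type 1, the reductase of the endoplasmic reticulum that regenerates cortisol. It measured 23.4, 24.0 and 23.6 CPM in knockout libraries 1 to 3, against 2.97, 2.39 and 2.70 CPM in wild-type libraries 1 to 3. Every knockout library was far above every wild-type library, and libraries within a group were close. The log2 fold change was 2.93 ± 0.091 (SE, n = 3 each; limma adjusted p = 9.6e-13), and 3.38% of all tested genes had a larger absolute change. The wild-type level rested on 36, 50 and 60 estimated reads, against 760, 649 and 757 in the knockout. The hepatocyte markers moved with it, at the summed levels given above, and their part in the result was not tested.

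The list of glucocorticoid metabolism held 9 genes beside HSD11B1, all measured. Of these, 7 rose and 2 fell, against 40.3% and 39.6% of all genes. Their median log2 change was 2.47, against 0.014 for all genes. AKR1D1 and AKR1C4 were below 1 CPM in every wild-type library. Both passed the filter on low values through the knockout alone, so they could be counted only as rises. H6PD, which supplies the NADPH that HSD11B1 needs, rose to 438, 447 and 468 CPM in knockout libraries 1 to 3, against 236, 241 and 238 CPM in wild-type libraries (log2 0.92 ± 0.029, limma adjusted p = 9.1e-13). HSD11B2, the enzyme of the opposite direction that turns cortisol into cortisone, fell to 5.36, 4.85 and 5.82 CPM in the knockout, against 10.6, 9.57 and 9.13 CPM in wild type (log2 -0.82 ± 0.099, limma adjusted p = 3.2e-06). The gene for the activating enzyme and that for the inactivating one thus differed in opposite directions.

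The largest rises of that list were in genes of steroid clearance. CYP3A4, which hydroxylates steroids and is itself a PXR target, averaged 257 ± 4.803 CPM in the knockout and 13.7 ± 0.39 CPM in wild type (log2 4.18 ± 0.036). AKR1D1, the 5β-reductase that inactivates cortisol and cortisone, averaged 8.67 ± 0.23 CPM in the knockout and 0.20 ± 0.15 CPM in wild type (log2 3.74 ± 0.15), the wild-type level resting on 12 estimated reads. SRD5A3, a steroid 5α-reductase family member that works in protein glycosylation, fell to 16.0 ± 0.96 CPM in the knockout, against 29.7 ± 1.36 CPM in wild type (log2 -0.87 ± 0.062). Reads of CYP3A4 may be shared with other CYP3A genes.

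**Figure D2:**
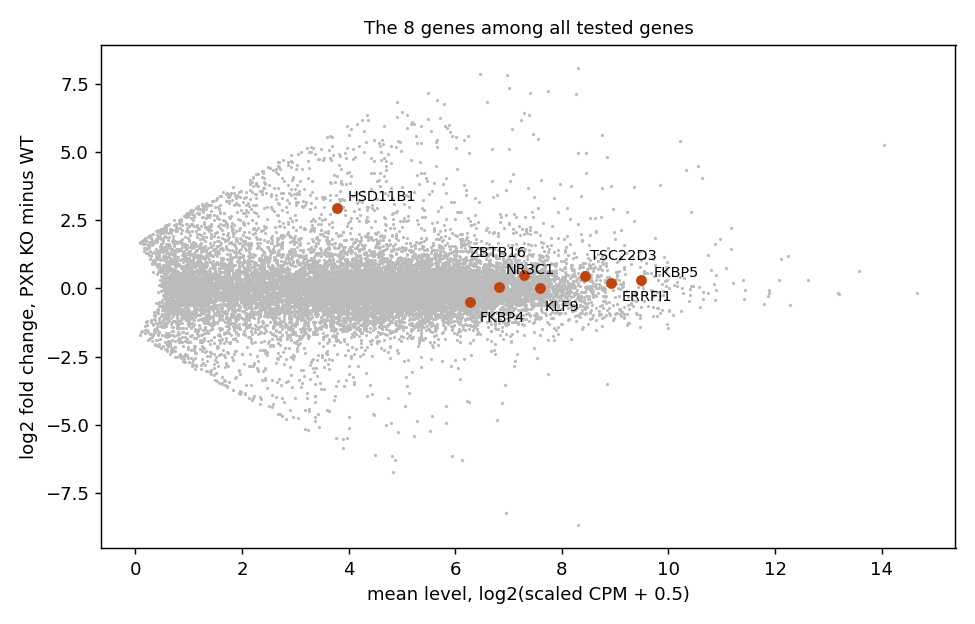
Log2 fold change, PXR knockout minus wild type (vertical axis), against mean level as log2(scaled CPM + 0.5) (horizontal axis) for the 16219 tested genes (grey points), with the 8 genes named and marked. HSD11B1 lies at 2.93, and the other 7 lie between -0.51 and 0.49, within the dense band of genes of like level.

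The 2 immunophilins of the receptor complex differed in opposite directions. FKBP5 (ENSG00000096060.14, chromosome 6, 35573585 to 35728583, minus strand) measured 793, 778 and 793 CPM in knockout libraries 1 to 3, against 675, 622 and 629 CPM in wild-type libraries 1 to 3. The groups were apart, with wild-type library 1 the nearest to the knockout. The log2 fold change was 0.30 ± 0.031 (SE; limma adjusted p = 6.9e-07).

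FKBP4 (ENSG00000004478.8, chromosome 12, 2794953 to 2805423, plus strand) measured 63.6, 63.1 and 63.9 CPM in knockout libraries 1 to 3, against 88.7, 91.3 and 92.8 CPM in wild-type libraries 1 to 3. It was the one gene of the 8 that fell, and the groups were apart. The log2 fold change was -0.51 ± 0.032 (SE; limma adjusted p = 2.3e-09). Of all tested genes, 65.4% had a larger absolute change than FKBP5 and 46.6% a larger one than FKBP4.

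A ratio of both genes within a library does not depend on how libraries were scaled. FKBP5 to FKBP4 was 12.5, 12.3 and 12.4 in knockout libraries 1 to 3, against 7.61, 6.81 and 6.77 in wild-type libraries 1 to 3. The difference was 0.81 on the log2 scale, and the groups were apart. An exact two-sided permutation test over the 6 libraries gave p = 0.1, the smallest that 3 against 3 allows, and 0.12 after Benjamini-Hochberg adjustment over the 6 ratios computed. These ratios were chosen after the values were seen.

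HSD11B1 to HSD11B2 was 4.37, 4.95 and 4.05 in knockout libraries, against 0.28, 0.25 and 0.30 in wild-type libraries, a log2 difference of 4.02. TSC22D3 to NR3C1 was 3.32, 3.69 and 3.398 in knockout libraries, against 2.80, 2.60 and 2.61 in wild-type libraries. FKBP5 to NR3C1 averaged 6.88 ± 0.24 in the knockout and 5.86 ± 0.59 in wild type, HSD11B1 to H6PD 0.053 ± 0.0019 and 0.011 ± 0.0013, and the groups were apart for both. KLF9 to NR3C1 overlapped between the groups, at 1.68 ± 0.049 in the knockout and 1.73 ± 0.096 in wild type (SD, n = 3 each; exact permutation p = 0.5).

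**Figure D3:**
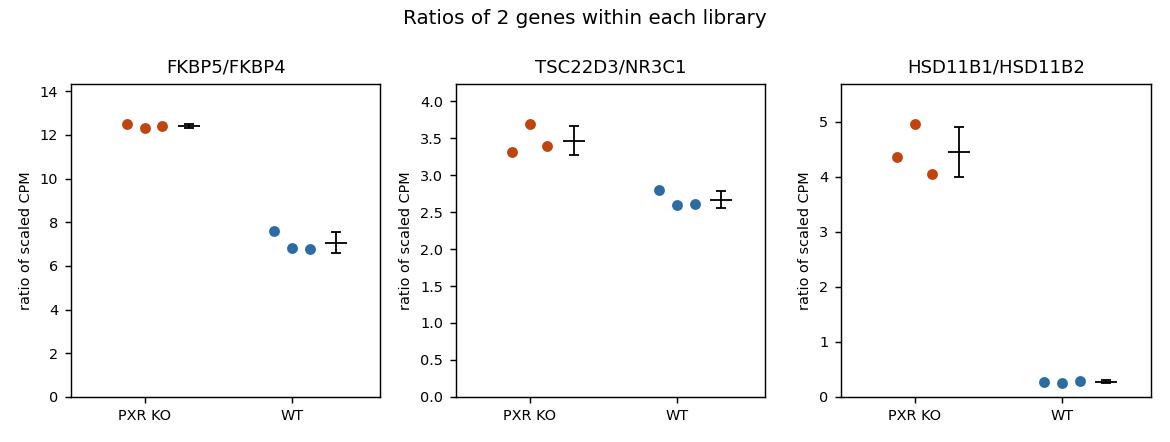
Ratio of scaled CPM of 2 genes within each library (vertical axes, from 0) for the PXR knockout and wild-type libraries; points are libraries, and bars the mean ± SD. FKBP5 to FKBP4 lies at 12.3 to 12.5 in the knockout and at 6.77 to 7.61 in wild type, and HSD11B1 to HSD11B2 lies above 4 in each knockout library and at 0.25 to 0.30 in wild type.

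Of the 15 listed FKBP genes, 13 were in the table. Of these, 4 were called higher and 7 lower, against 40.3% and 39.6% of all genes. Their median log2 change was -0.11, against 0.014 for all genes. FKBP10 passed the filter on low values through the wild type alone. With libraries scaled to equal sums the split was 2 higher and 9 lower. Also 2 were called higher with quantile normalization, with no trend, and without knockout library 1, knockout library 3 or wild-type library 1. Without wild-type library 2 or wild-type library 3, 3 were called higher. FKBP9 and FKBP15, called higher, and FKBP8, called lower, overlapped between the groups. FKBP10, a collagen chaperone of the endoplasmic reticulum, fell to 0.14 ± 0.062 CPM in the knockout, against 28.8 ± 0.82 CPM in wild type, the knockout level resting on 13 estimated reads. FKBP7, another member of the endoplasmic reticulum, fell to 6.65 ± 0.19 CPM, against 13.3 ± 1.64 CPM in wild type. FKBP11 rose to 22.2 ± 0.62 CPM, against 16.4 ± 0.73 CPM in wild type. Its log2 change of 0.43 was below the median of 0.53 for the genes within 10 Mb on either side of it. Per kilobase of merged exons FKBP5 was at 74.2 CPM in the knockout and 60.4 CPM in wild type, well above FKBP4 at 12.3 CPM in the knockout and 17.6 CPM in wild type; the merged length counts exons of all annotated transcripts.

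Chaperones of the HSP90 machinery that holds the receptor were called in both directions, as genes were in general. All 18 listed chaperones and co-chaperones were tested; 6 were called higher and 10 lower, against 40.3% and 39.6% of all genes, with a median log2 change of -0.091. HSP90AA1, the inducible HSP90, rose to 683 ± 13.3 CPM in the knockout, against 472 ± 12.8 CPM in wild type (log2 0.53 ± 0.028). HSP90AB1, the constitutive form, averaged 1037 ± 21.3 CPM in the knockout and 1034 ± 6.27 CPM in wild type, and was not called (log2 0.0042 ± 0.026, limma adjusted p = 0.885). It was called lower with equal sums (log2 -0.13, adjusted p = 0.00033) and with quantile normalization (log2 -0.16, adjusted p = 2.5e-05). PTGES3 (p23), which stabilises the hormone-binding state, rose by 0.38 ± 0.027 on the log2 scale, beside a median of 0.50 for the genes within 10 Mb on either side of it.

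CDC37, which loads kinases onto HSP90, fell to 120 ± 4.04 CPM in the knockout, against 251 ± 6.29 CPM in wild type. AHSA1, the activator of its ATPase, fell to 86.1 ± 1.22 CPM, against 177 ± 4.26 CPM in wild type. PPID (cyclophilin 40), a further immunophilin of the complex, fell to 36.2 ± 3.20 CPM, against 50.5 ± 1.28 CPM in wild type. DNAJA1 and BAG1, co-chaperones of HSP70, were the largest rises of the list, by 0.90 ± 0.029 and 0.69 ± 0.037 on the log2 scale, beside a median of 0.48 for their neighbouring genes on chromosome 9.

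Of 16 coregulators of nuclear receptors, 5 rose and 9 fell (median log2 -0.23), against 40.3% higher and 39.6% lower of all genes. The coactivator gene NCOA3 rose to 89.0 ± 4.10 CPM in the knockout, against 61.0 ± 0.58 CPM in wild type. SIN3A, a corepressor scaffold, fell to 37.5 ± 0.15 CPM, against 75.1 ± 2.19 CPM in wild type. The acetyltransferase gene EP300 fell to 31.1 ± 1.40 CPM, against 54.7 ± 1.42 CPM in wild type; on chromosome 22 the median log2 change of its neighbours was -0.78, and EP300 itself was at -0.81.

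TSC22D3 (ENSG00000157514.16, chromosome X, 107713221 to 107777342, minus strand) encodes GILZ, a leucine zipper protein that mediates anti-inflammatory effects of glucocorticoids. Its level was 396, 402 and 394 CPM in knockout libraries 1 to 3, against 289.7, 292 and 298 CPM in wild-type libraries 1 to 3. The groups were apart by far more than their spread. The log2 fold change was 0.44 ± 0.025 (SE; limma adjusted p = 7.5e-10), and the median of its neighbouring genes was 0.19. Within its family TSC22D2 rose by 0.43 ± 0.057 and TSC22D1, a TGF-β-responsive member, fell by 0.80 on the log2 scale (SE 0.029). Of the 4 members, 2 were called higher, 1 lower and 1 was not called, against 40.3% higher and 39.6% lower of all genes.

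ZBTB16 (ENSG00000109906.13, chromosome 11, 114059593 to 114250676, plus strand) encodes PLZF, a zinc finger transcription factor strongly induced by glucocorticoids in many cells. It measured 178, 184 and 185 CPM in knockout libraries 1 to 3, against 131, 129 and 128 CPM in wild-type libraries 1 to 3. All knockout libraries were above all wild-type libraries, and the log2 fold change was 0.49 ± 0.028 (SE; limma adjusted p = 7.0e-10). Of all tested genes, 48.4% had a larger absolute change.

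ERRFI1 (ENSG00000116285.13, chromosome 1, 8004404 to 8026308, minus strand) encodes MIG6, a feedback inhibitor of the EGF receptor. It measured 522, 512 and 521 CPM in knockout libraries 1 to 3, against 443, 453 and 448 CPM in wild-type libraries 1 to 3. The groups were apart, and the log2 fold change was 0.21 ± 0.024 (SE; limma adjusted p = 1.7e-06). It was the smallest difference among the 6 called genes, and 74.4% of all tested genes had a larger one.

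KLF9 (ENSG00000119138.4, chromosome 9, 70384597 to 70414624, minus strand) encodes a Krüppel-like transcription factor that the receptor induces directly. It measured 194, 189 and 194 CPM in knockout libraries 1 to 3, against 190.3, 192 and 189.5 CPM in wild-type libraries 1 to 3. The groups overlapped, with knockout library 2 the lowest of the 6. The log2 fold change was 0.014 ± 0.026 (SE; 95% interval -0.042 to 0.070; limma adjusted p = 0.640). The genes within 10 Mb on either side of KLF9 had a median log2 change of 0.23 over 62 genes.

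The scaling of the libraries bears on differences as small as these. With libraries scaled to equal sums the median over all genes moved to -0.12 on the log2 scale in place of 0.014, and with quantile normalization it was -0.055. ERRFI1 then had a log2 change of 0.072 with equal sums and 0.070 with quantile normalization, and FKBP5 one of 0.16 and 0.24; both were still called higher. KLF9 was called lower under both (log2 -0.12 with adjusted p = 0.00073, and -0.11 with adjusted p = 0.00078; the adjusted p ran from 0.00073 to 0.875 over its alternatives). NR3C1 was at -0.077 with equal sums and 0.0096 with quantile normalization, not called under either. Relative to the median of all genes, quantile normalization in place of the deposited scaling put FKBP5 at 0.29 in place of 0.28, TSC22D3 at 0.39 in place of 0.42, ZBTB16 at 0.44 in place of 0.48, ERRFI1 at 0.12 in place of 0.20, KLF9 at -0.059 in place of -0.00044 and NR3C1 at 0.064 in place of 0.047. Equal sums shift the genes of a library nearly alike, so that the same subtraction gives nearly the deposited values by construction.

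**Figure D4:**
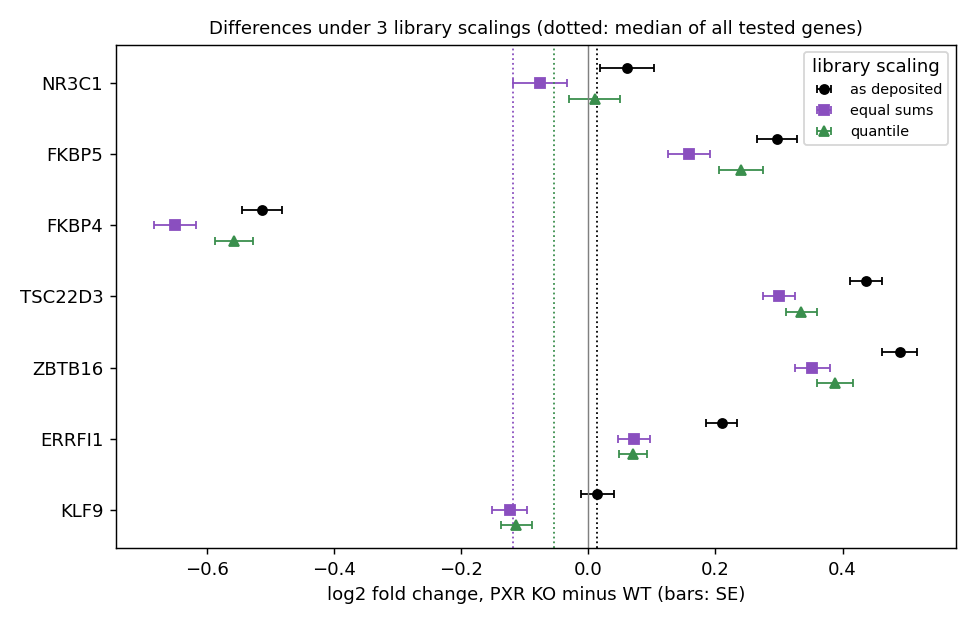
Log2 fold change, PXR knockout minus wild type (horizontal axis; bars are the SE), of 7 genes under 3 scalings of the libraries: as deposited, equal sums and quantile; dotted lines mark the median of all tested genes under each. FKBP5, TSC22D3, ZBTB16 and ERRFI1 stay above 0 and FKBP4 below it under all 3, while KLF9 lies at 0.014, -0.12 and -0.11.

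Of 35 genes commonly described as glucocorticoid-induced, 32 were in the table, among them 5 of the genes above. PER1, CDKN1C and LCN2 were not analysed here. Of the 32, 20 rose, 8 fell and 4 were not called, against 40.3% higher and 39.6% lower of all genes. Their median log2 change was 0.24, against 0.014 for all genes. RGS2 passed the filter on low values through the knockout alone. With equal sums the split was 17 higher and 11 lower. DUSP1, a MAP kinase phosphatase, rose to 547 ± 7.10 CPM in the knockout, against 243 ± 4.52 CPM in wild type (log2 1.17 ± 0.025, limma adjusted p = 2.5e-14). SGK1, the serum- and glucocorticoid-regulated kinase, rose to 69.1 ± 2.38 CPM, against 27.7 ± 1.22 CPM in wild type (log2 1.30 ± 0.045, limma adjusted p = 2.8e-12). NFKBIA, the inhibitor of NF-κB, and CEBPB, a liver transcription factor, rose by 0.56 ± 0.027 and 0.54 ± 0.054.

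RGS2, a regulator of G protein signalling, rose to 19.9, 18.2 and 19.1 CPM in the knockout, against 0, 0.096 and 0.090 CPM in wild type, where it had 4 estimated reads in all. The metallothionein genes went the other way. MT2A fell to 72.6 ± 0.55 CPM in the knockout, against 168 ± 6.93 CPM in wild type, and MT1X fell to 43.8 ± 1.25 CPM, against 114 ± 6.04 CPM; their reads may be shared with other metallothioneins. Targets of the receptor thus differed in both directions.

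Liver-type targets showed the widest range. Of 21 listed, 20 were in the table. Of these, 15 rose and 5 fell, against 40.3% and 39.6% of all genes. Their median log2 change was 1.47, against 0.014 for all genes. PCK1, G6PC, ARG1 and CRP were below 1 CPM in every wild-type library. These genes passed the filter on low values through the knockout alone, so they could be counted only as rises. TAT, tyrosine aminotransferase, the classical receptor target of liver, measured 48.3, 50.7 and 50.04 CPM in knockout libraries, against 1.57, 1.58 and 1.30 CPM in wild-type libraries (log2 4.66 ± 0.086, limma adjusted p = 4.2e-15). TDO2, tryptophan dioxygenase, rose to 194 ± 4.66 CPM, against 12.4 ± 1.03 CPM in wild type (log2 3.92 ± 0.052). PCK1, the gluconeogenic carboxykinase, was at 13.6, 13.9 and 15.1 CPM in the knockout and at 0 in all 3 wild-type libraries, at least 262-fold higher against a floor of 3 reads over the wild-type libraries.

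IGFBP1, a secreted binder of insulin-like growth factors, rose to 20.3 ± 0.55 CPM in the knockout, against 1.605 ± 0.17 CPM in wild type. HP, haptoglobin, rose to 2330.4 ± 6.65 CPM, against 55.1 ± 3.57 CPM in wild type, with reads that may be shared with the related gene HPR. ARG1, arginase, stood at 35.1, 33.4 and 36.0 CPM in the knockout, against 0, 0 and 0.13 CPM in wild type, where it had 3 estimated reads. PPARGC1A, a coactivator of gluconeogenic genes, and SDS, serine dehydratase, fell by 0.66 and 0.87 on the log2 scale (SE 0.025 and 0.12). The hepatocyte markers, which include TAT, CPS1 and CYP3A4, rose at 12 of 12, against 40.3% of all genes. Their part in these values was not tested. TAT and CPS1 are also in the list of liver-type targets. AHSG and ASGR1 among the markers passed the filter through the knockout alone, so they could be counted only as rises.

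Of 15 inflammatory genes commonly described as repressed by glucocorticoids, 9 were tested; 5 rose, 2 fell and 2 were not called (median log2 0.46). The chemokine genes CXCL2 and CCL20 rose to 33.8 ± 1.62 and 15.1 ± 1.05 CPM in the knockout, against 5.51 ± 0.47 and 4.15 ± 0.29 CPM in wild type. CSF1, the macrophage growth factor, fell to 114 ± 4.78 CPM, against 176 ± 6.74 CPM in wild type, and the chemokine gene CXCL1 fell to 5.91 ± 0.23 CPM, against 7.997 ± 0.74 CPM. With equal sums the split was 5 higher and 3 lower. Over all genes 40.3% were called higher and 39.6% lower.

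**Figure D5:**
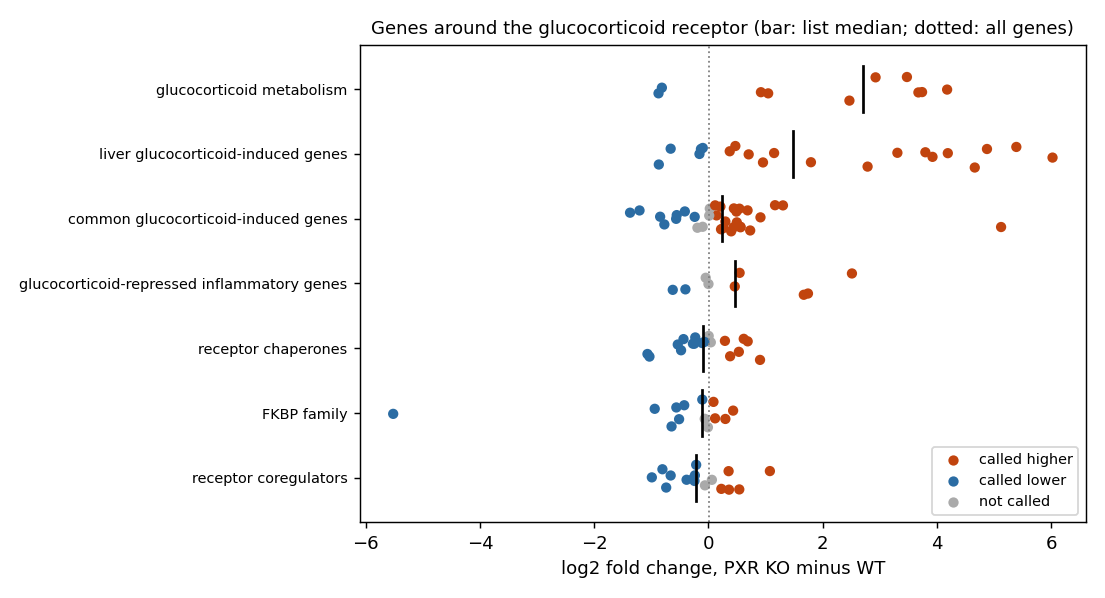
Log2 fold change, PXR knockout minus wild type (horizontal axis), of each tested gene in 7 lists around the glucocorticoid receptor; each point is a gene, coloured by whether it was called higher, lower or not called, black bars are list medians and the dotted line is the median of all genes. Metabolism, here with HSD11B1, and liver-type targets have medians of 2.70 and 1.47, and the other 5 lists lie between -0.23 and 0.46.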

How the data were processed

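Per the labels' protocols, total RNA of untreated HepaRG cells was made into libraries with a stranded mRNA kit. Tools listed in the submitters' processing notes are Bowtie2, Trim Galore, FastQC, limma and edgeR, with the build hg38 and no versions. The deposited signal is linear although its name says log2 CPM. In each library the low values were multiples of a hundredth of one step, the value of 1 read, within 0.05 of a hundredth, which gave the estimated depths; 67.2% to 76.6% of values under 20 reads were whole within 0.006 of a read, so no count test was run. The 14 second pseudoautosomal copies were removed; 16608 of 16659 identifiers matched GENCODE 29. Genes above 1 CPM in at least 3 of 6 libraries were kept. A gene at or below 1 CPM throughout 1 group passed through the other group alone, and could be called only as higher there. log2(scaled CPM + 0.5) was tested with limma 3.58.1 in R 4.3.3 (trended empirical Bayes, two-sided, Benjamini-Hochberg over all 16219 tested genes, threshold 0.05). The same fit was run on simulated data in which few genes changed. Most genes were called here, so that run does not check the calls in these data. The test had been set for either linear or log2 values.

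The genes and lists were chosen with earlier results of these data known. Beyond the 8 genes, the text names NR1I2, a fixed set, the up to 2 largest rises and falls past the threshold per list, and the genes with the most similar pattern; any further gene was picked with its value in view. Some genes that this rule names are not reported here. Within each group, libraries were compared first: the mean chi-square per gene was 2.23 to 9.73 and the median 0.63 to 0.91, so that some genes differed beyond sampling noise in each pair and many did not; no columns were identical, and all were kept as separate libraries. Alternatives covered pseudocount, filter, scaling, trend, replicate block, neighbouring genes and each library left out. Tables and figures used Python 3.11.15, pandas 2.3.3, numpy 2.4.6 and matplotlib 3.10.9.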

Additional observations from a re-analysis of the deposited data

How the results depend on the processing

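Refits used pseudocounts of 0.1 and 1, other filters, no trend, a replicate block, equal sums and quantile normalization. The number of called genes ran from 10393 of 12413 tested, with a mean of at least 5 CPM, to 13170 of 16656, without a filter. As deposited it was 12960 of 16219, and with a library left out 12444 to 12887 of 16219. The split was 6534 higher and 6426 lower as deposited, 5342 and 7705 with equal sums, and 5932 and 7031 with quantile normalization. The 6 called genes among the 8 were called in the same direction under each refit. With a library left out, log2 changes ran from 0.27 to 0.33 for FKBP5, -0.53 to -0.50 for FKBP4, 0.43 to 0.45 for TSC22D3, 2.86 to 2.99 for HSD11B1, 0.48 to 0.51 for ZBTB16, 0.20 to 0.22 for ERRFI1, 0.017 to 0.097 for NR3C1 and 0.0053 to 0.027 for KLF9, and the FKBP5 to FKBP4 log2 difference from 0.78 to 0.87.

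With equal sums NR3C1 turned to -0.077, KLF9 to -0.12, HSP90AB1 to -0.13, OSTM1 to -0.089, C3orf14 to -0.073 and EIF4E to -0.074; with quantile normalization KLF9 turned to -0.11 and HSP90AB1 to -0.16. KLF9, HSP90AB1 and CCT3 (log2 -0.14 and -0.11) were not called as deposited and were called lower under both scalings. These scalings moved the median of all genes to -0.12 and -0.055. Near 0, single libraries also turned HSP90AB1 (-0.0077 to 0.021 over the libraries left out) and CCT3 (-0.010 to 0.014). With the median of neighbouring genes taken out, log2 values were 0.43 for FKBP5, -0.42 for FKBP4, 0.25 for TSC22D3, 0.46 for ZBTB16, 0.25 for ERRFI1 and -0.22 for KLF9; that median comes from the same changes, so it is no test.

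Same-numbered libraries had deviation correlations of -0.061 to 0.025, so the numbers are not taken to pair the libraries; with the replicate block 12916 genes were called, and FKBP5 kept 0.30 with adjusted p = 2.4e-07. The wild-type libraries were the shallower, and the wild-type level of HSD11B1 rests on 146 estimated reads in all.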

Other observations

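In the Krüppel-like family of KLF9, 14 of 18 members were tested; 6 rose, 5 fell and 3 were not called, shares near the 40.3% higher and 39.6% lower of all genes (median log2 0.0057; 5 higher and 8 lower with equal sums). KLF2 and KLF7 fell most, to 0.82 ± 0.16 and 12.9 ± 0.46 CPM in the knockout, against 3.11 ± 0.63 and 30.3 ± 1.33 CPM in wild type. KLF2 passed the filter on low values through the wild type alone, so it could be counted only as a fall. Its knockout level rests on 76 estimated reads in all. KLF4 and KLF3 rose to 6.09 ± 0.51 and 53.5 ± 1.26 CPM, against 3.89 ± 0.74 and 37.9 ± 1.71 CPM in wild type (SD, n = 3 each).

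Receptors of the family that ERRFI1 restrains differed between the groups by unequal amounts. EGFR, the EGF receptor gene, measured 294, 290.0 and 302 CPM in knockout libraries, against 68.8, 70.3 and 69.5 CPM in wild-type libraries (log2 2.08 ± 0.028, limma adjusted p = 1.9e-16), beside a median of 0.44 for its neighbouring genes on chromosome 7. ERBB3 rose to 222 ± 4.93 CPM, against 48.2 ± 3.60 CPM in wild type, and ERBB4 fell to 5.69 ± 0.52 CPM, against 31.8 ± 0.50 CPM. ERBB2, the fourth receptor of the family, rose by less, to 119.9 ± 3.21 CPM, against 86.6 ± 2.48 CPM in wild type (log2 0.47 ± 0.033). SPRY1, another feedback inhibitor of receptor tyrosine kinases, fell to 3.44 ± 0.35 CPM, against 10.4 ± 0.26 CPM in wild type. Of 16 listed genes of this family and its feedback, 8 rose, 6 fell and 2 were not called (median log2 0.089), against 40.3% higher and 39.6% lower of all genes.

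Likeness of pattern was measured as the distance between log2 values over the 6 libraries, each gene centred on its mean, among 12412 other genes with a mean of at least 5 CPM. Nearest to NR3C1 were OSTM1, C3orf14 and EIF4E, at distances of 0.0499, 0.053 and 0.058. The nearest to FKBP5 was ALDH7A1 (0.046), to FKBP4 SRP72 (0.031), to TSC22D3 RELCH (0.031), to ZBTB16 AES (0.038), to KLF9 CCT3 (0.024), to ERRFI1 UGDH-AS1 (0.029) and to HSD11B1 SESN2 (0.12). SESN2 stood at 74.3 ± 1.73 CPM in the knockout, against 9.83 ± 0.71 CPM in wild type. UGDH-AS1 is antisense to UGDH; counting by strand is not stated, so reads of both cannot be told apart.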
